A study of Rattus norvegicus with 4 samples.

Results

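The insulin, PI3K-AKT and FoxO pathway was examined in day 4 rat embryoid bodies, the aggregates that pluripotent cells form as they start to differentiate. The pathway was represented by 33 named genes, matched by symbol in the expression tables, and all 33 were found once each among 32753 genes. RNA-seq was done on 4 libraries: 2 from wild-type (WT) cells and 2 from Kcnh2-/- cells, both derived from rat embryonic stem cells of a strain given as DASD. Kcnh2 encodes the voltage-gated potassium channel ERG1, and expression was compared between the genotypes at day 4. Cells of both genotypes were treated alike: hanging drops were kept for 2 days in a medium called CM that held Y27632, a ROCK inhibitor, at 10 µM, PD0325901, which blocks MEK, at 0.1 µM, and CHIR9902, spelled as in the labels, at 0.75 µM. They then spent 24 hours on laminin in CM with PD0325901 and CHIR9902 at those doses, and 1 day in a medium called DM. The labels do not give the altered part of Kcnh2, the number of lines or clones, or whether replicates were separate cultures, so p-values measure only the spread between these samples. Levels are in RPKM, reads scaled to transcript length and library size, which allows levels to be compared between genes. The files give no read depth.

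Insulin and IGF receptors are tyrosine kinases that phosphorylate the adaptor proteins IRS1 and IRS2. These recruit class I PI3K, a dimer of a catalytic and a regulatory subunit, which makes the membrane lipid PIP3. PIP3 brings the kinases PDK1 and AKT together, and active AKT keeps FoxO transcription factors out of the nucleus and relieves the TSC block on RHEB and mTOR complex 1. When the signal is weak, FoxO factors enter the nucleus and switch on genes of stress resistance, cell cycle arrest and insulin sensitivity, among them the receptor gene Insr itself. In pluripotent cells this pathway is known for its part in growth and self-renewal.

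FoxO proteins bind the element GTAAACA, and its presence near member genes is shown first because FoxO targets form the largest role group below. RefSeq promoters (build GRCr8, 250 bases before to 50 after the annotated start) were available for 27 of the 33 members. The element, searched on both strands, lay in 4 of these 27, in Pik3ca, Trib2, Insr and Tsc1, and in 3.78% of all 33469 promoters. It lay in 0 of the 8 FoxO target genes with a promoter in the table. The Tsc1 match lies after the start and is not printed. The other matches all read as the reverse complement, TGTTTAC, on the strand of the gene, and are in capitals with up to 17 bases on either side, 5′ to 3′. The Pik3ca window is chr2:117147125-117147165 (plus strand, element 157 to 151 bases before the start). The Trib2 window is chr6:44299317-44299344 (minus strand, 246 to 240 bases before the start), and the Insr window is chr12:6128880-6128920 (minus strand, 100 to 94 bases before the start).
Pik3ca: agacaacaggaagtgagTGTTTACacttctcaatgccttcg
Trib2: gcacTGTTTACctcgcgcctggccgagc
Insr: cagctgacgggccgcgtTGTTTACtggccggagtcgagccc
A match is a description of the letters in this window, and occupancy was not measured.

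The libraries differed in ways that bear on the results. As a check of the labels, the 2 WT libraries held Kcnh2 at 2.61 and 1.45 RPKM (replicate 1, then replicate 2, as in all pairs of values below), and the Kcnh2-/- libraries at 0.108 and 0.504 (limma adjusted p = 0.980). The Y-linked Eif2s3y was at 153 and 135 RPKM in the WT pair, against 0.0574 and 0.140 in Kcnh2-/-, so the genotypes also differ in sex-chromosome RNA. For every gene below, loss of Kcnh2 and this difference between the cells cannot be told apart. All 9 pluripotency markers found reached 1 RPKM in at least 2 libraries. Their summed RPKM was 389 and 1837 in WT and 1459 and 2673 in Kcnh2-/- replicates 1 and 2. Pou5f1 carried most of each sum, at 273 and 1203 RPKM in the WT pair, against 1043 and 1679 in Kcnh2-/-. Nanog split by replicate number, at 2.50 and 72.6 against 8.69 and 74.1. Tfcp2l1 was below 1 RPKM in WT replicate 1, and Sox2 was lowest in Kcnh2-/- replicate 1, at 18.1 RPKM. Cardiac and smooth muscle markers (8 genes, 6 of them at 1 RPKM or more in at least 2 libraries) summed to 2080 and 102 RPKM in the WT pair, against 349 and 28.5 in Kcnh2-/-. Tagln, Tnnc1 and Actc1 carried most of this sum in WT replicate 1, at 1329, 349 and 310 RPKM. Myl7 and Nkx2-5 were at 1.97 and 0.111 in that library. Endoderm markers (7 genes, 6 at that level of 1 RPKM) summed to 181 and 52.4 against 44.2 and 2.89. Of 7 hepatocyte and adipocyte genes, which mark classic insulin target tissues, 2 reached that level, Adipoq at 4.60 to 8.91 RPKM and Ttr at 30.9 and 1.31 in WT and 4.24 and 0 in Kcnh2-/-. The summed RPKM of the 7 ran from 9.58 to 36.4, with albumin (Alb) at most 0.0470 and Fabp4 listed at 0 in all 4 libraries. In such mixed aggregates, fewer cells of a type and less RNA per cell cannot be told apart.

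No member passed the test between genotypes, which on simulated data recovered 0% of changes of 1 or 2 log2 units. Limma on log2(RPKM + 1), adjusted over the 12355 genes that reached 1 RPKM in 2 or more libraries, called 0 of the 32 members that met this filter, against a background of 0.113% of all genes tested (14 genes). At an unadjusted p under 0.05 there were 2 members, Pik3r1 and Igf1r, against 3.38% of all genes, and the smallest adjusted p of a member was 0.980. The remaining member, the transcriptional repressor gene Bcl6, was below the filter at 0.187 and 0.135 RPKM in the WT pair, against 0.0558 and 0.0663 in Kcnh2-/-. Groups did not overlap for 3 members higher in Kcnh2-/- (Pik3r1, Foxo4 and Sod2), against 16.7% of all genes, and for 5 lower (Igf1r, Irs1, Irs2, Pik3r2 and Rictor), against 15.3%. As shares of the 32 members these are 9.38% and 15.6%, so the members did not stand out from the background in either direction. The median difference over the 32 members was -0.21 on the log2 scale, beside 0.00524 over all genes tested. Without WT replicate 1 these medians were -0.0458 and -0.0217. With a filter of 5 RPKM, which 26 members met, they were -0.0150 and 0.0509. In the other fits tried, the median over members lay between -0.22 and -0.16.

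**Figure D1:**
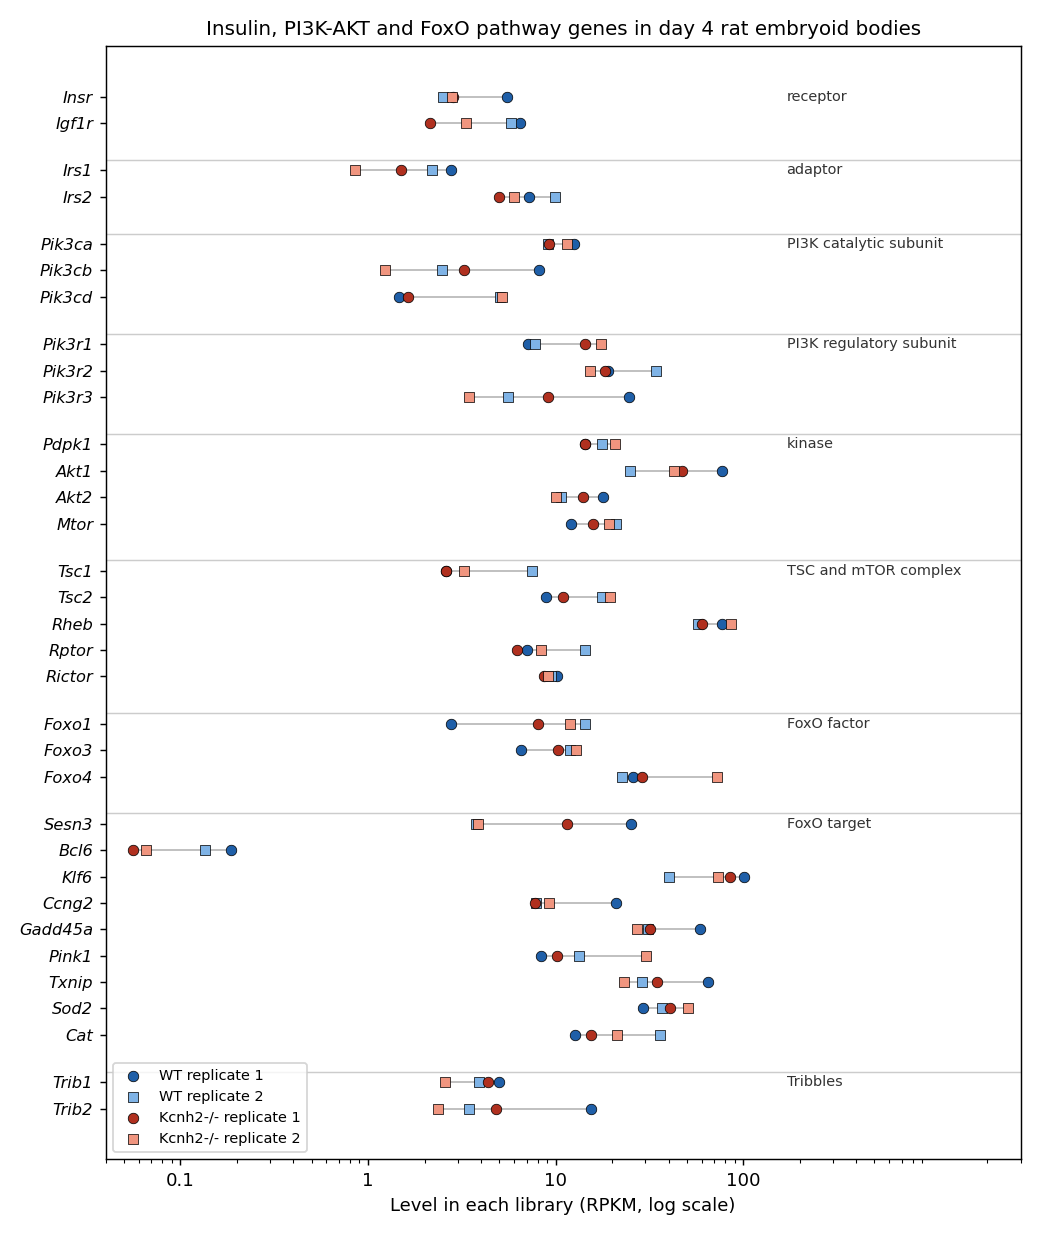
Level of each of the 33 genes (rows, ordered by role) in RPKM on a log axis, with 1 point for each of the 4 libraries. For Pik3r1 both Kcnh2-/- points, at 14.3 and 17.4 RPKM, lie to the right of both WT points at 7.12 and 7.80, while Sesn3, Trib2 and Pik3r3 spread by replicate number in both genotypes.

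Both receptor genes were expressed at low levels, and Igf1r was lower in both Kcnh2-/- libraries. Igf1r, the receptor of IGF1 and IGF2 (rn6 chromosome 1, 128924965 to 129206516), was at 6.43 and 5.81 RPKM in the WT pair, against 2.13 and 3.32 in Kcnh2-/-. The groups did not overlap, and the mean level was 0.446 times that of WT. Its difference was -0.95 ± 0.34 (log2 scale, SE, limma adjusted p = 0.980), with -1.25 within replicate 1 and -0.65 within replicate 2. Leaving out each library in turn gave values from -1.18 to -0.72. The insulin receptor gene Insr was at 5.52 and 2.51 RPKM in the WT pair, against 2.84 and 2.82 in Kcnh2-/-. WT replicate 1 alone was high, the groups overlapped, and the difference changed from -0.32 to 0.13 without that library.

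The adaptor genes Irs1 and Irs2 were lower in both Kcnh2-/- libraries, without passing the test. Of the 6 other adaptor genes tested in the wider list below, 2 had a difference above 0 and 4 below 0. Irs2 was more abundant than Irs1 in every library, with 72.2% to 87.6% of the summed RPKM of these 2 genes. Irs1 (chromosome 9, 88033667 to 88086488) was at 2.78 and 2.18 RPKM in the WT pair, against 1.503 and 0.850 in Kcnh2-/- (difference -0.69 ± 0.38, limma adjusted p = 0.980). Irs2 (chromosome 16, 83824429 to 83848684) was at 7.21 and 9.95 RPKM in the WT pair, against 5.02 and 6.01 in Kcnh2-/- (difference -0.55 ± 0.32, adjusted p = 0.980). Neither gene's groups overlapped, and the within-replicate differences were -0.60 and -0.78 for Irs1 and -0.45 and -0.64 for Irs2. Summed over Insr and Igf1r, receptor RNA was at 11.9 and 8.31 RPKM in WT against 4.98 and 6.14 in Kcnh2-/-. Summed over Irs1 and Irs2, adaptor RNA was at 9.996 and 12.1 against 6.52 and 6.86.

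Among the PI3K regulatory subunits, Pik3r1 was higher in both Kcnh2-/- libraries and the other members were lower in value, none of them past the test. Pik3r1, which encodes p85α and its short forms p55α and p50α (chromosome 2, 31745087 to 31826867), was at 7.12 and 7.80 RPKM in the WT pair, against 14.3 and 17.4 in Kcnh2-/-. Both Kcnh2-/- libraries were above both WT libraries, by 2.01-fold within replicate 1 and 2.23-fold within replicate 2. The difference, 0.99 ± 0.28 on the log2 scale, had the smallest unadjusted p of all members tested, with a limma adjusted p of 0.980. It stayed between 0.86 and 1.12 when any 1 library was left out. With the replicate number as a term and protein-coding genes alone, its limma adjusted p was 0.225.

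The other regulatory genes lay on the opposite side of 0. Pik3r2, encoding p85β, was at 18.9 and 34.1 RPKM in the WT pair, against 18.3 and 15.2 in Kcnh2-/-. WT replicate 2 alone was high, and without it the difference of -0.58 became -0.17. Pik3r3, encoding p55γ, was at 24.7 and 5.57 RPKM in the WT pair, against 9.13 and 3.43 in Kcnh2-/-, so both replicate 1 libraries were above both replicate 2 libraries. Its difference was -0.96 ± 0.81 (limma adjusted p = 0.980) and 0.0280 without WT replicate 1.

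The share of Pik3r1 in the regulatory pool was 14.0% and 16.4% in WT, below its share of 34.3% and 48.3% in Kcnh2-/-. As means these are 15.2% ± 1.71 and 41.3% ± 9.91 (SD, n = 2 each; exact two-sided permutation p = 0.333, the smallest that 2 against 2 allows). The summed regulatory RNA was at 50.8 and 47.4 RPKM in the WT pair, against 41.7 and 36.1 in Kcnh2-/-.

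**Figure D2:**
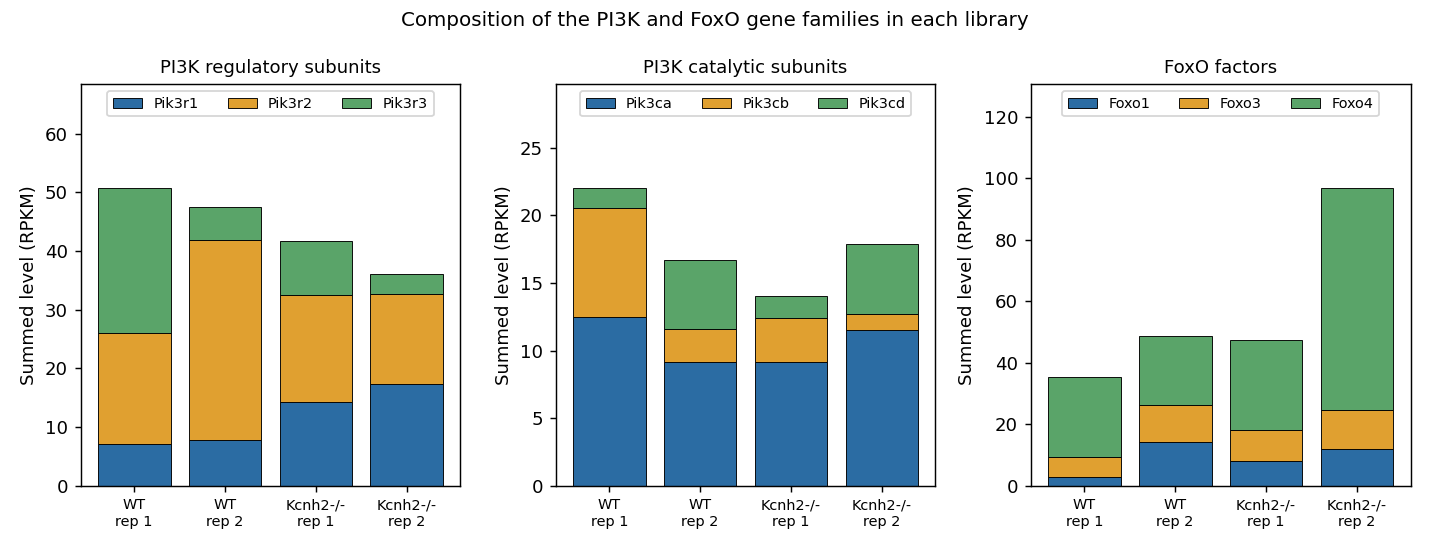
Stacked RPKM of the PI3K regulatory subunits, the PI3K catalytic subunits and the FoxO factors in each library (bars, linear axis from 0). The Pik3r1 segment is 14.3 and 17.4 RPKM in Kcnh2-/- against 7.12 and 7.80 in WT, and the Foxo4 segment of Kcnh2-/- replicate 2, at 72.1 RPKM, stands above the other 3 libraries.

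Of the catalytic subunits, Pik3ca was the most abundant and the steadiest. Pik3ca, encoding p110α, was at 12.4 and 9.13 RPKM in the WT pair, against 9.17 and 11.5 in Kcnh2-/-, with 54.7% to 65.3% of the summed catalytic RPKM. The groups overlapped, with a difference of -0.0511 ± 0.31. Pik3cb (p110β) was at 8.12 and 2.48 RPKM in the WT pair, against 3.24 and 1.23 in Kcnh2-/-, lower within both replicate numbers (-1.11 and -0.65) but with overlapping groups. Pik3cd (p110δ, best known from leukocytes) was at 1.46 and 5.07 against 1.64 and 5.19 RPKM. It followed the replicate number almost alone: replicate 2 was above replicate 1 by 1.31 in WT and 1.23 in Kcnh2-/-, while the genotypes differed by 0.0658. Pik3cb and Pik3cd thus stood on opposite sides of the replicate split, with Pik3cb at 36.9% and 23.1% of catalytic RPKM in the replicate 1 libraries and 14.9% and 6.84% in replicate 2.

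The kinases downstream of PI3K had genotype differences near 0, with SEs larger than the differences. Akt1, the main AKT gene here with 70.1% to 81.1% of the summed AKT RPKM, was at 76.7 and 25.0 RPKM in the WT pair, against 46.9 and 42.5 in Kcnh2-/-. The Kcnh2-/- values lay between the WT values, and the difference was -0.70 within replicate 1 and 0.74 within replicate 2. Akt2, the AKT gene tied to insulin-driven glucose uptake, was at 17.8 and 10.7 against 14.0 and 10.1 RPKM. Pdpk1, encoding the PDK1 kinase that phosphorylates AKT, was at 14.4 and 17.7 against 14.3 and 20.6. Mtor, the kinase of both mTOR complexes, was at 12.0 and 20.9 against 15.7 and 19.3. The 4 differences ran from -0.20 (Akt2) to 0.13 (Mtor) on the log2 scale, with SEs of 0.31 to 0.57, and no kinase had groups that did not overlap.

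Differences of the TSC and mTOR complex genes ran from -0.50 (Tsc1) to 0.20 (Tsc2) on the log2 scale, and none passed the test. Rheb, the small GTPase that activates mTOR complex 1, was the most abundant at 77.2 and 57.2 RPKM in the WT pair, against 60.4 and 86.2 in Kcnh2-/-. Rictor, the scaffold of mTOR complex 2, was at 10.1 and 9.45 against 8.62 and 9.15 RPKM. Its groups did not overlap, yet the difference was only -0.13 ± 0.27. The scaffold of mTOR complex 1, Rptor, was at 7.01 and 14.4 against 6.22 and 8.32 RPKM. The inhibitor gene Tsc1 was at 2.60 and 7.47 RPKM in the WT pair, against 2.60 and 3.25 in Kcnh2-/-, and its partner Tsc2 at 8.92 and 17.6 against 10.9 and 19.6. For Rptor and Tsc1 the WT replicate 2 library was the high one, and without it their differences of -0.44 and -0.50 became 0.0345 and 0.12. Tsc2 and Mtor were higher in replicate 2 than in replicate 1 in both genotypes.

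All 3 FoxO genes had a difference above 0, and none passed. Foxo4 (chromosome X, in a locus the authors list as 71127674 to 71222732) was the most abundant, with 46.3% to 74.4% of the summed FoxO RPKM. It was at 25.9 and 22.6 RPKM in the WT pair, against 29.0 and 72.1 in Kcnh2-/-. The groups did not overlap, but Kcnh2-/- replicate 1 was only 1.12-fold above WT replicate 1, while in replicate 2 the ratio was 3.19. The difference was 0.89 ± 0.49 (limma adjusted p = 0.980), made of 0.16 within replicate 1 and 1.63 within replicate 2, and 0.25 without Kcnh2-/- replicate 2.

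X-linked genes were higher in Kcnh2-/- as a whole: the median of the 359 protein-coding X-linked genes tested was 0.64 within replicate 1 and 0.59 within replicate 2. Foxo4 was thus below the X median in replicate 1 and above it in replicate 2. Its locus is shared in the tables with 5 other genes, and how reads of this stretch were divided between them is not shown in the files. Of these, the Mediator subunit gene Med12 was at 4.17 and 5.98 RPKM in the WT pair, against 5.43 and 12.8 in Kcnh2-/-, also highest in Kcnh2-/- replicate 2. The part of the X-linked shift in the Foxo4 difference was not tested.

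The autosomal FoxO genes were at lower levels. Foxo1, the FoxO factor best known for insulin-regulated transcription, was at 2.77 and 14.3 RPKM in the WT pair, against 8.05 and 11.9 in Kcnh2-/-. Both Kcnh2-/- values lay between the WT values, and the difference was 1.26 within replicate 1 and -0.25 within replicate 2. Foxo3 was at 6.54 and 11.9 RPKM in the WT pair, against 10.2 and 12.9 in Kcnh2-/-, a difference of 0.34 ± 0.39. WT replicate 1 was the lowest library for both genes, and without it the differences were -0.50 and -0.0515.

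Genes known as FoxO targets had differences on both sides of 0. Of the 9 members, Bcl6 was below the filter, 3 had a difference above 0 and 5 below 0, with a median of -0.38. No limma adjusted p was under 0.980. The wider list below holds 17 other FoxO targets that were tested. Of these, 11 had a difference above 0 and 6 below 0, with a median of 0.23. Sod2, the mitochondrial superoxide dismutase, was the single target among the members with groups apart: 29.2 and 36.9 RPKM in the WT pair, against 40.4 and 50.6 in Kcnh2-/-. It was higher by 1.38-fold within replicate 1 and 1.37-fold within replicate 2 (log2 difference 0.45 ± 0.28, limma adjusted p = 0.980). Pink1, a kinase of mitochondrial quality control, was at 8.38 and 13.3 against 10.2 and 30.2 RPKM, with Kcnh2-/- replicate 2 alone high. The catalase gene Cat, also an antioxidant enzyme, was at 12.7 and 36.1 against 15.5 and 21.3. Of the 3 mitochondrial and antioxidant genes, then, Sod2 and Pink1 were higher within both replicate numbers and Cat was not.

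Among the members, the targets of growth arrest and damage response, Sesn3, Ccng2 and Gadd45a, were highest in WT replicate 1. In the wider list below, Cdkn1a, Sesn1 and Sesn2 were instead highest in Kcnh2-/- replicate 2, and Cdkn1b in WT replicate 1. Sesn3, a sestrin that restrains mTOR complex 1, was at 25.2 and 3.77 RPKM in the WT pair, against 11.4 and 3.83 in Kcnh2-/-, so it differed more by replicate number than by genotype. Ccng2, an atypical cyclin of cell cycle arrest, was at 21.01 and 7.88 against 7.77 and 9.19. Gadd45a, a damage response gene, was at 58.5 and 31.2 against 31.8 and 27.3. In these genes WT replicate 1 was 1.88-fold (Gadd45a) to 6.68-fold (Sesn3) above WT replicate 2, and the groups overlapped.

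Txnip, an inhibitor of thioredoxin and glucose uptake, was at 64.7 and 29.0 RPKM in the WT pair, against 34.5 and 23.2 in Kcnh2-/- (difference -0.60 ± 0.48). The zinc finger factor gene Klf6 was the most abundant target among the members, at 101 and 40.1 against 85.4 and 72.9 RPKM. For Klf6 the sign differed between replicate numbers (-0.23 and 0.85). WT replicate 1 again held the highest value of both genes.

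Among the Tribbles pseudokinases, which act on AKT and FoxO signalling, the members Trib1 and Trib2 were lower within both replicate numbers with overlapping groups. Trib3, in the wider list below, was instead higher within both (0.56 and 0.72), with groups apart. Trib2, a repressor of FoxO activity and 1 of the promoters printed above, was at 15.5 and 3.43 RPKM in the WT pair, against 4.83 and 2.35 in Kcnh2-/-. Its difference of -0.95 ± 0.74 (limma adjusted p = 0.980) became -0.00478 without WT replicate 1. Trib1 was at 4.96 and 3.90 against 4.36 and 2.57 RPKM. The 4 genes with the element in their promoter all had a difference below 0, from -0.95 (Trib2) to -0.0511 (Pik3ca), and none passed the test. A difference below 0 was also the case for 59.4% of the 32 members and 49.6% of all genes tested. Without WT replicate 1 the differences of Pik3ca and Insr were 0.15 and 0.13. Without WT replicate 2 that of Tsc1 was 0.12. Pik3ca, Insr and Trib2 were highest in WT replicate 1, and Tsc1 in WT replicate 2.

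**Figure D3:**
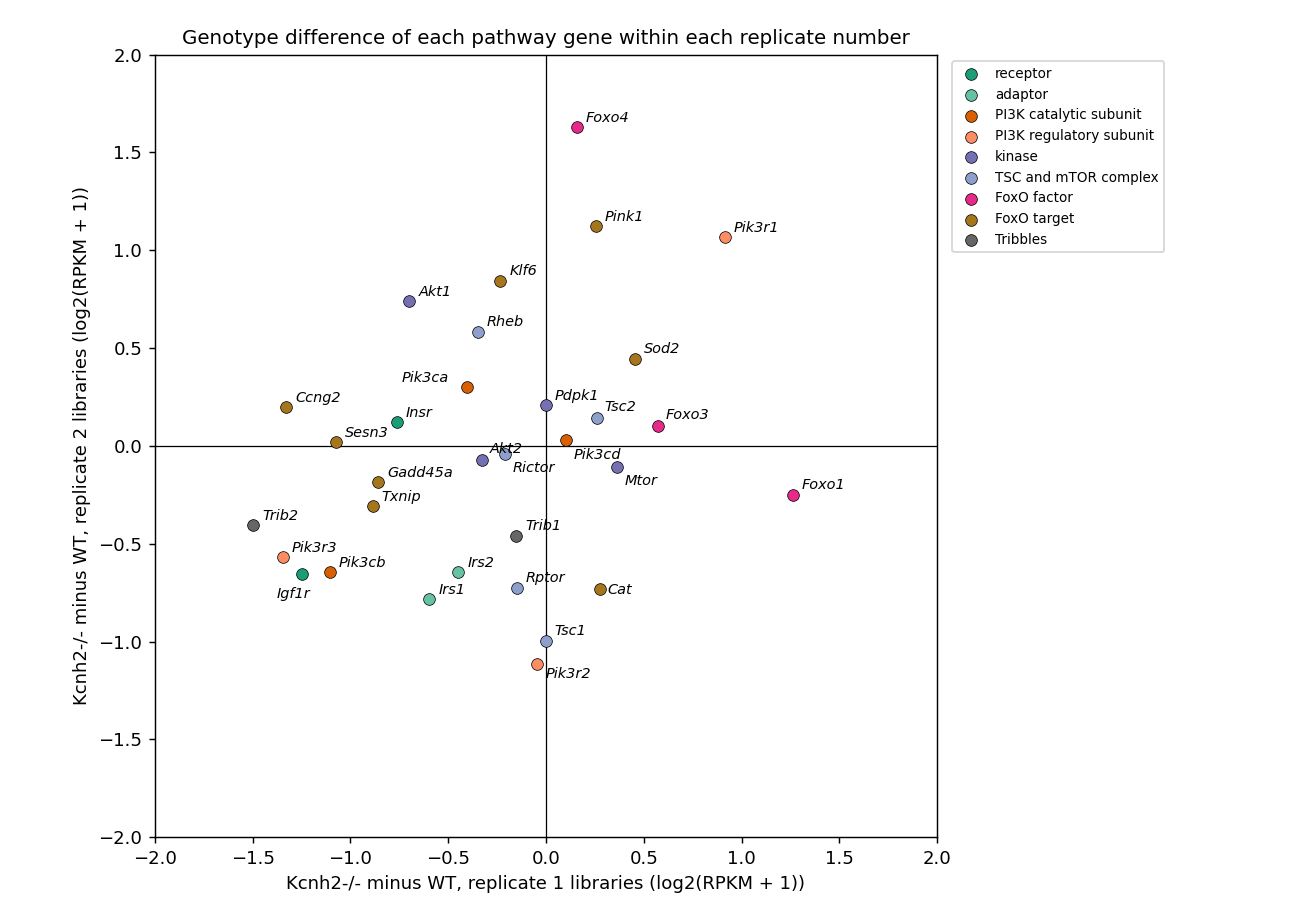
Kcnh2-/- minus WT in log2(RPKM + 1) for each of the 32 tested genes, in the replicate 1 libraries (horizontal) and the replicate 2 libraries (vertical), coloured by role. Pik3r1 (0.92 and 1.07) is far from 0 on both axes at the upper right and Igf1r (-1.25 and -0.65) at the lower left near Pik3r3 and Pik3cb, while Foxo4 (0.16 and 1.63) and Foxo1 (1.26 and -0.25) are far from 0 on a single axis.

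Replicate number separated more members than genotype did, as it did over all genes tested. Both replicate 1 libraries were above both replicate 2 libraries for 11 of 32 members, or 34.4%, against 19.8% of all genes tested. The reverse held for 10 members, or 31.3%, against 29.5%. In all, replicate number separated 21 of 32 members (65.6%, against 49.4% of all genes) and genotype 8 of 32 (25.0%, against 32.0%). Among the first 11 were Pik3r3, Pik3cb, Akt1, Akt2, Sesn3, Gadd45a, Txnip, Trib1 and Trib2. Among the other 10 were Pik3cd, Mtor, Tsc1, Tsc2, Rptor, Foxo1, Foxo3, Pink1 and Cat.

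The median size of the replicate difference was 0.55 and of the genotype difference 0.47 over the 32 members, beside 0.37 and 0.29 over all genes tested. WT replicate 1 held the highest value of 16 members, or 50.0%, against 28.4% of all genes, and Kcnh2-/- replicate 1 held the highest value of none, against 14.4%. WT replicate 1 was also the library with the highest muscle and endoderm marker sums and the lowest pluripotency sum. The part of these cell types in the members' levels was not tested.

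Position on the chromosome went with some of the differences. In the replicate 2 libraries, protein-coding genes of chromosomes 3, 13 and 16 had median differences of -0.33, -0.35 and -0.39, while those of the other 17 autosomes ran from -0.00180 to 0.15. Within replicate 1 the medians of chromosomes 3 and 16 were -0.000836 and -0.0218. Of all protein-coding genes tested, 76.4% of those on chromosome 3 and 81.5% of those on chromosome 16 were lower in Kcnh2-/- within replicate 2. The 4 members on these chromosomes were likewise all lower there. Their differences were -0.99 for Tsc1, -0.73 for Cat, -1.11 for Pik3r2 and -0.64 for Irs2. Within replicate 1 the same genes, in that order, were at -0.00143, 0.28, -0.0464 and -0.45. The part of the chromosome medians in these values was not tested. Pik3r1, on chromosome 2, stood against chromosome medians of -0.11 and 0.12, and Igf1r, on chromosome 1, against -0.0211 and 0.0589.

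**Figure D4:**
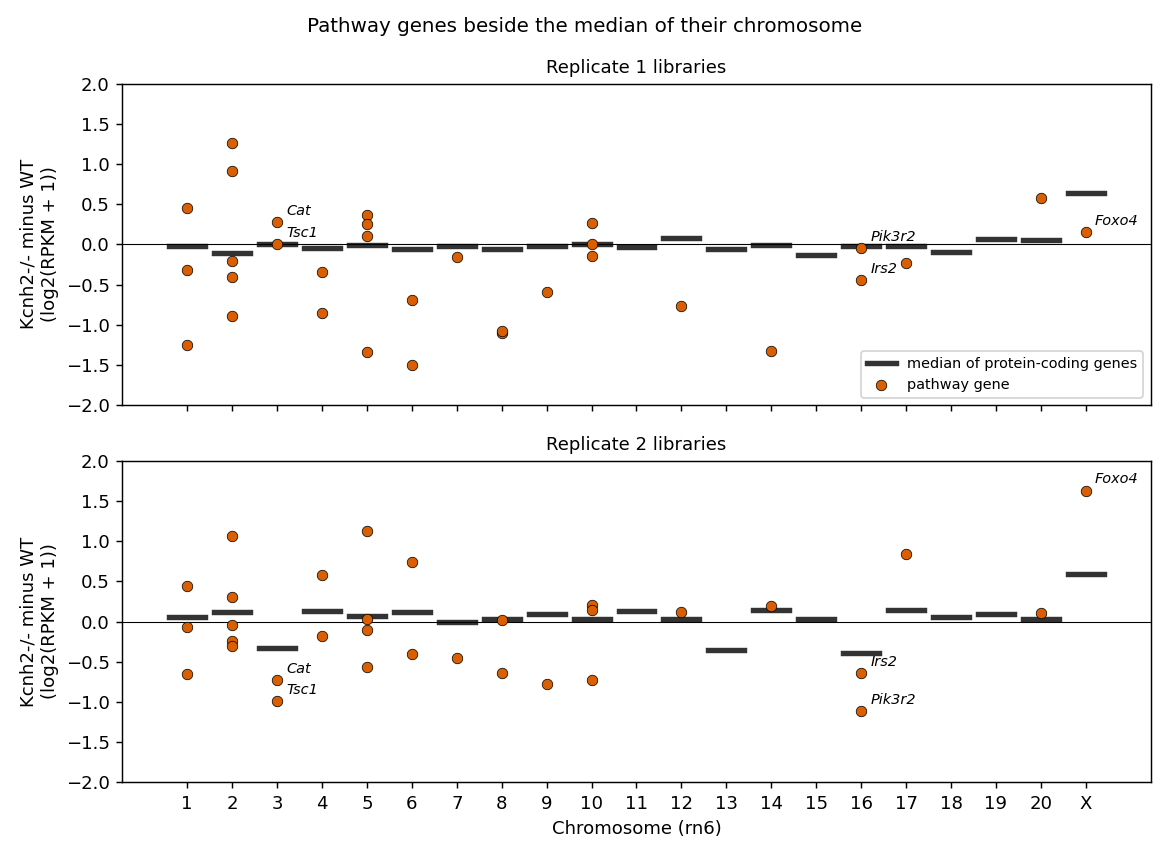
Kcnh2-/- minus WT in log2(RPKM + 1) of each tested pathway gene (points) beside the median of the protein-coding genes of its chromosome (bars), in the replicate 1 libraries (top) and replicate 2 libraries (bottom). Genes on chromosomes 3, 16 and X are named; in replicate 2 the bars of chromosomes 3, 13 and 16 sit at -0.33, -0.35 and -0.39 and that of X at 0.59.

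A wider list of 89 other genes of the same pathway (ligands, binding proteins, phosphatases, further adaptors and kinases, and other FoxO targets) was compared in the same fit. Of these, 87 were found and 67 met the filter, and limma called 0, against 0.113% of all genes, with 1 (1.49%) at an unadjusted p under 0.05, against 3.38%. Groups did not overlap for 9 higher and 7 lower genes, 13.4% and 10.4% of 67, against 16.7% and 15.3% of all genes, and the median difference was -0.0104. The 3 higher genes of smallest p were Igfbp4, Igfbp2 and Trib3. Igfbp4, an IGF-binding protein that limits IGF access to its receptor, was at 23.3 and 24.0 RPKM in the WT pair, against 40.9 and 40.1 in Kcnh2-/- (log2 difference 0.75 ± 0.23, limma adjusted p = 0.980). Both Kcnh2-/- values were far above both WT values, which differed little from each other. Igfbp2 was at 197 and 427 against 477 and 734 RPKM, and the stress-induced pseudokinase gene Trib3 at 8.13 and 11.5 against 12.4 and 19.6.

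The 3 lower genes of smallest p were Deptor, Inppl1 and Ccnd2. Deptor, an mTOR inhibitor, was at 4.34 and 6.02 RPKM in the WT pair, against 2.45 and 2.67 in Kcnh2-/-. Inppl1, which encodes the lipid phosphatase SHIP2, was at 27.1 and 23.1 against 16.9 and 18.3. Ccnd2, a D-type cyclin, was at 76.4 and 3.60 against 7.02 and 0.327, set apart by WT replicate 1. Ligand genes were looked up for their role after values had been seen. Igf1 was at most 0.366 RPKM, Ins1 was listed at 0 throughout, and Igf2 stood at 70.2 RPKM in WT replicate 1 and at 2.31 to 2.98 in the other 3 libraries.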

How the data were processed

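Ribosomal RNA was removed from total RNA, and stranded TruSeq libraries were sequenced as 100 bp read pairs, per the labels' protocols. TopHat2 2.0.13, Cufflinks 2.2.1 and rn6 are named in the submitters' processing notes. The annotation and the strand setting were not given in the sources used here. Each library has its own table of RPKM for every gene, a unit the authors computed before they deposited it. A locus is shared with another gene for 7 of the 33 members (Foxo4, Igf1r, Irs1, Mtor, Pink1, Trib2 and Tsc2), and the files do not show how reads were divided there.

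Genotypes were compared with limma 3.58.1 in R 4.3.3 (trend, two-sided, no replicate term) on log2(RPKM + 1), which understates changes of low genes. The 12355 genes that reached 1 RPKM in 2 or more libraries were tested, p-values were adjusted by Benjamini-Hochberg, and calls were made under 0.05. The code was tested on simulated data, built with a replicate shift shared by both genotypes. There the main fit recovered 0% of genes changed by 1 or 2 log2 units, 34% at 3 and 72% at 4. With a replicate term the fit recovered 20% at 1 and 96% at 2, or 60.9% and 95.6% on protein-coding genes alone. These 2 fits made 24 and 21 false calls, on data built with the very shift that the term models. Changes were planted only in genes at higher levels, so the rates need not hold for low members. A member without a call may therefore still differ. Members and lists were chosen with earlier results of these data known. Every member is named. Library values were set for members at a mean of 5 RPKM in either group or with groups apart, and are given for the lower members too. Of the wider list the 3 genes of smallest p per direction are named, beside Kcnh2 as the check of the labels. Symbols were matched to biotypes in a RefSeq table (GRCr8). There were 14 alternatives: pseudocount, filters, scalings, variance model, threshold, replicate term, protein-coding genes, and each library left out. RPKM sums were 7.95e+07 and 1.09e+08 in replicate 1 libraries and 1.17e+07 and 8.93e+06 in replicate 2, with 90.3% to 99.5% of them outside protein-coding genes. Protein-coding sums were 1.02e+06 and 712153 in WT and 588638 and 865709 in Kcnh2-/-, with no split by number. Differences within each replicate number are given. Read depth is unknown, since RPKM is given without counts. Pandas 2.3.3, numpy 2.4.6, scipy 1.17.1 and matplotlib 3.10.9 were used in Python 3.11.15.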

Additional observations from a re-analysis of the deposited data

How the results depend on the processing

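Limma called 0 members in every alternative. The count of all genes called was 14, and moved to 1 with no filter, 3 without the variance trend, 3 with protein-coding genes only, 28 with the replicate block and 82 with the replicate block on protein-coding genes only. In the blocked fits the smallest adjusted p of a member was 0.380 and 0.225. The numbers are not known to pair the libraries: replicate 2 minus 1 correlated between genotypes with r = 0.38 across 12355 genes and 0.71 across the 32 members. Members with groups apart numbered 3 lower with quantile normalization (9.38%, against 13.6% of all genes). In the main fit they numbered 5 (15.6%, against 15.3%). With a library left out they numbered 3 to 10 higher and 9 to 18 lower, where a single library faces a pair and separation is easier. In those fits, 25.2% to 41.8% of all genes were higher and 28.3% to 35.3% lower. The shares of members were 9.38% to 31.2% and 28.1% to 56.2%.

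Of the 32 members, 13 kept the sign of their difference in every alternative that gave them a value (Irs1, Pik3cb, Trib1 and Trib2 have none at the 5 RPKM filter): Foxo4, Gadd45a, Igf1r, Irs1, Irs2, Pik3cb, Pik3r1, Pik3r2, Rictor, Sod2, Trib1, Trib2 and Txnip. Quantile normalization turned Akt1 to -0.0873, Pik3ca to 0.0123 and Rheb to -0.0750. Leaving out 1 library at a time turned 19, and the cause was not tested. Their ranges, in log2, were -0.77 to 0.81 (Akt1), -0.54 to 0.15 (Akt2), -0.95 to 0.49 (Cat), -1.22 to 0.0908 (Ccng2), -0.50 to 1.51 (Foxo1), -0.0515 to 0.73 (Foxo3), -0.77 to 0.13 (Insr), -0.35 to 0.96 (Klf6), -0.25 to 0.50 (Mtor), -0.14 to 0.35 (Pdpk1), -0.26 to 0.15 (Pik3ca), -0.59 to 0.72 (Pik3cd), -1.94 to 0.0280 (Pik3r3), -0.0525 to 1.43 (Pink1), -0.14 to 0.37 (Rheb), -0.91 to 0.0345 (Rptor), -1.76 to 0.70 (Sesn3), -1.12 to 0.12 (Tsc1) and -0.25 to 0.66 (Tsc2). Such fits assume that the lone library varies like the other group.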
